A study of Mus musculus with 4 samples.

Results

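The 8 genes described here belong to the cardiac response to noradrenaline and acetylcholine and were read out in 4 single-nucleus RNA libraries: Adrb1, Adra1a, Adra1b, Chrm2, Adcy5, Adcy6, Grk5 and Gnas. All 8 of the 8 symbols were found among the 32285 mouse genes of the deposited matrices. Nuclei came from whole hearts of wild-type mice collected at postnatal day 12 (P12), after an injection at P7 and 5 days of a maternal diet. The 4 groups held 1 library each: saline (control) with maternal chow, AAV9-YAP5SA with maternal chow, saline with a maternal high-fat diet (HFD), and AAV9-YAP5SA with maternal HFD. YAP5SA is an active mutant form of the transcriptional co-activator YAP, delivered by an adeno-associated virus (AAV9) under the cardiac troponin T promoter, which is active in cardiomyocytes. The control was saline and not an empty virus, so virus and YAP5SA cannot be told apart, and how many hearts went into a library is not stated in the labels. Groups were taken from the sample titles, since for YAP5SA on chow and for control on HFD the treatment label gives the opposite diet. The library of YAP5SA on chow was the only male one. It had 298 UMIs of Xist and 4760 of the Y-linked Ddx3y, against 106671 to 154625 and 1 to 17 in the other libraries. Sex and YAP5SA thus cannot be told apart in the chow comparison. The test of control against YAP5SA over all libraries is not balanced for sex either, since the male library lies in the YAP5SA arm.

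Sympathetic nerves release noradrenaline, which acts on beta-1 receptors (Adrb1) and alpha-1 receptors (Adra1a, Adra1b) of the heart. Beta-1 receptors couple through the stimulatory G protein alpha subunit (Gnas) to adenylyl cyclases 5 and 6 (Adcy5, Adcy6), which make cyclic AMP and so raise the rate and force of contraction, while alpha-1 receptors couple through Gq to phospholipase C. The vagus nerve releases acetylcholine, and the M2 muscarinic receptor (Chrm2) inhibits cyclase through Gi and opens a potassium channel in atrial and pacemaker cells. G-protein-coupled receptor kinase 5 (Grk5) phosphorylates active receptors and so starts their desensitisation.

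The sequences before the start sites of the 3 members that passed the test in cardiomyocyte-like nuclei are shown, since Adrb1 and Adcy5 fell and Grk5 rose in the same nuclei. They are the 250 bases before the start given by RefSeq (GRCm38.p6, plus strand, 5′ to 3′) at chr19:56721867-56722116 for Adrb1, chr16:35154614-35154863 for Adcy5 and chr19:60889499-60889748 for Grk5. Capitals mark a match to TGACG, the shared letters of the cyclic AMP response element, on either strand.
Adrb1: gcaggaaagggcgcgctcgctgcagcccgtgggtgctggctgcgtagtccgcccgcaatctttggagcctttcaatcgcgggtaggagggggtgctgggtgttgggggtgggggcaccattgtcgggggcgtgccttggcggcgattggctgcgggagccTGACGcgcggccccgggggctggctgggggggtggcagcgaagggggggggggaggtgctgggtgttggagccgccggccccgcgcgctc
Adcy5: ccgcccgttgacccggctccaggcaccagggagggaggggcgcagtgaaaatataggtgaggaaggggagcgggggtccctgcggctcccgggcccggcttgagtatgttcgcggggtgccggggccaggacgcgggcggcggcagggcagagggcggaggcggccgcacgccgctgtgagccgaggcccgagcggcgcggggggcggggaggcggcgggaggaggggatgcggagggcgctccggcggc
Grk5: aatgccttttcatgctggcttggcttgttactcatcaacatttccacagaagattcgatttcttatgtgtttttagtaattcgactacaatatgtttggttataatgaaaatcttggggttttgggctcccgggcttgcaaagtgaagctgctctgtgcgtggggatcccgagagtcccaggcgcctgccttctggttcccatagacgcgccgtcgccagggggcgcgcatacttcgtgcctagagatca
TGACG or its reverse complement CGTCA was found in the Adrb1 window, 90 bases before the start, and not in those of Adcy5 and Grk5. It is in 17.8% of all 32851 promoters of the table over the same 250 bases. The letters GGAATG, bound by TEAD factors that partner YAP (12.6% of promoters on either strand), and AGATAA, bound by GATA factors (9.99%), were in none of the 3 windows. A match here is a description of letters and not of binding. The windows before Adrb1 and Adcy5 were rich in G and C (74.0% and 78.0%), and that before Grk5 was less so (49.6%). RefSeq windows were found for 6 of the 8 members, all but Adra1a and Adcy6.

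The genes lie on 7 chromosomes in the mm10 build: Adrb1 at chr19:56722199-56733113, Adra1a at chr14:66635251-66771168, Adra1b at chr11:43774606-43901210, Chrm2 at chr6:36388084-36528414, Adcy5 at chr16:35154877-35305738, Adcy6 at chr15:98589973-98610076, Grk5 at chr19:60889749-61095968 and Gnas at chr2:174284320-174346744. Genes on the opposite strand overlap 5 of them, among which Zfp950 overlaps Grk5 and Nespas and Gm20721 overlap Gnas. Whether counting used strand is not given in the sources, so reads of such pairs may not have been told apart.

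After filters, 6048 (control, chow), 8068 (YAP5SA, chow), 8018 (control, HFD) and 10009 (YAP5SA, HFD) nuclei were kept, with median depths of 4166 to 5045 unique molecular identifiers (UMIs, counts of single RNA molecules) per nucleus. Nuclei were clustered over all libraries and clusters were named from markers. Below, values are given in the order control chow, YAP5SA chow, control HFD, YAP5SA HFD unless the groups are named, and CPM is the usual library-scaled count (a gene's share of all UMIs, multiplied up to a fixed total), here of UMIs summed over the nuclei of a class in a library. The cardiomyocyte-like class held 3543, 4704, 2933 and 4889 nuclei in 7 clusters. As a check of the labels, Ccn2, a direct YAP target, was at 34.5 and 39.8 CPM in the control libraries and at 353 and 161 CPM with YAP5SA. The clusters that held most of the class differed between groups. Cluster 7 held 71.9% of it in control on chow and 45.0% in control on HFD, where cluster 8 held 49.0%. With YAP5SA on chow cluster 6 held 35.0% and cluster 10 22.6%, and with YAP5SA on HFD cluster 9 held 38.1% and cluster 10 19.2%. Summed over the 14 cardiomyocyte markers used for naming, the level was 57824, 37107, 61279 and 38785 CPM, and 6 of the 14 were at least 1.5-fold lower with YAP5SA on both diets; its part in the results below was not tested. Summed markers of endocardium (65.6, 168, 68.9 and 133 CPM, 4 of 6 markers at a mean of 10 CPM or more) were higher in the same sums with YAP5SA, as were those of Schwann cells (188, 511, 181 and 447 CPM) and epicardium (18.1, 76.4, 15.4 and 46.2 CPM). In each of these last 2 lists 1 marker alone reached that mean, and it was at least 1.5-fold higher on both diets, namely Ncam1 and Tbx18. Summed markers of pericytes (471, 180, 437 and 253 CPM) and erythroid cells (279, 164, 203 and 77.9 CPM) were lower with YAP5SA, and the part of these lists in the results was not tested. Libraries shared 11 to 34 cell barcodes with one another.

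In cardiomyocyte-like nuclei, YAP5SA libraries held more Grk5 than both controls and less Adrb1 and Adcy5. The test across all genes (edgeR's quasi-likelihood test, 2 control against 2 YAP5SA libraries, Benjamini-Hochberg adjusted p under 0.05) called 1 of the 8 members as risen and 2 as fallen. Over all 16884 genes tested, 8.11% rose and 4.33% fell. Without cluster 24, a cluster found in YAP5SA libraries alone that carried 5 of the 14 cardiomyocyte markers, the calls of Adrb1 and Adcy5 were lost while most of their fitted log2 difference remained (-0.73 and -0.80, against -0.88 and -0.94 with it), and that of Grk5 was kept. Separate libraries stand in for replicates here, since each group has 1 library. The 2 libraries of an arm differ in maternal diet, and those of YAP5SA also in sex. Diet was no term in this fit, and whether libraries came from separate litters is not given. The p-values thus measure the spread between these libraries, with diet and sex differences included.

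**Figure D1:**
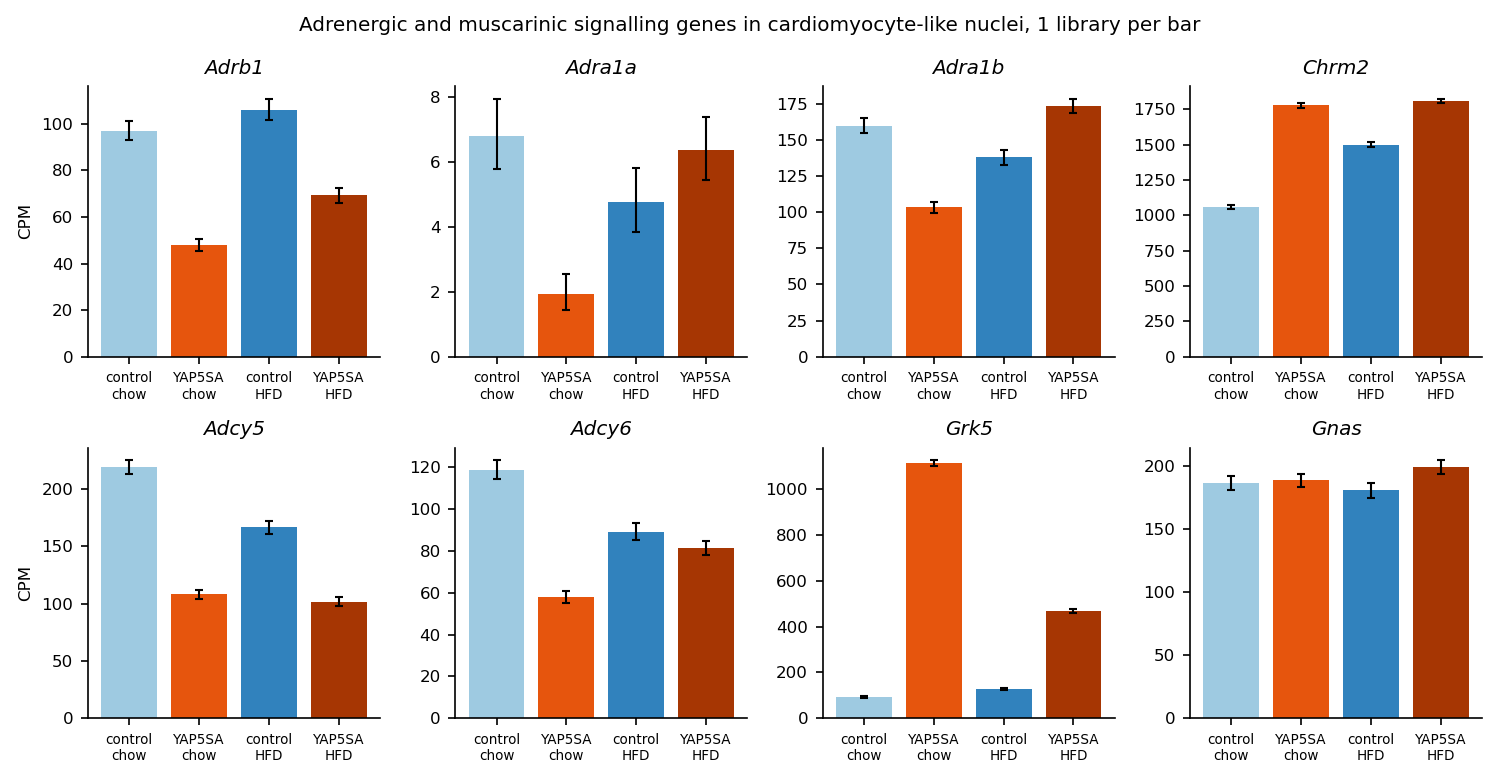
CPM of each of the 8 genes (y axis, from 0) in cardiomyocyte-like nuclei, 1 bar per library, with exact 95% Poisson intervals of the summed UMIs that cover counting error only. Grk5 is higher in both YAP5SA libraries (1113 and 467 CPM against 92.1 and 128 CPM), Adrb1 and Adcy5 are lower in both, and Gnas stays between 180 and 199 CPM.

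Among the receptors, Adrb1, the beta-1 receptor and the main route by which noradrenaline speeds and strengthens the beat, was at 96.8 CPM (control, chow), 47.8 CPM (YAP5SA, chow), 106 CPM (control, HFD) and 69.2 CPM (YAP5SA, HFD). Both YAP5SA libraries lay below both controls. Its fitted log2 change was -0.88 (SE 0.20, edgeR adjusted p = 0.0383). Within a diet, where 1 library stands against 1 and no test is possible, the log2 ratio was -1.02 on chow (95% interval -1.12 to -0.92), and that for HFD was -0.61 (-0.70 to -0.53). These and later intervals are exact conditional binomial intervals of the UMI counts and cover counting error only. A UMI of Adrb1 was seen in 41.9%, 20.9%, 45.8% and 28.2% of cardiomyocyte-like nuclei, and in 16.3%, 9.25%, 19.4% and 12.7% when every nucleus was thinned to 2000 UMIs, which left out 75, 118, 43 and 117 shallower nuclei. In endothelial-like nuclei, which have a median of 2443 to 3344 UMIs against 4897 to 6009 in cardiomyocyte-like nuclei, the unthinned share was 0.28% to 1.37%. Without cluster 24 the log2 ratio of Adrb1 was -0.81 for chow and -0.46 for HFD, and its adjusted p was 0.0755. The fitted change was -0.54 and the adjusted p 0.0918 without the 3 clusters that came to over 95% from YAP5SA. The adjusted p was 0.0723 without control on chow and 0.184 without control on HFD.

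Adra1a, the alpha-1A receptor, was scarce in cardiomyocyte-like nuclei, at 6.81, 1.94, 4.76 and 6.37 CPM. The library of YAP5SA on chow was the low one and the other 3 lay close together. The log2 ratio of YAP5SA to control was -1.80 on chow (-2.29 to -1.35) and 0.42 on HFD (0.05 to 0.80), and edgeR gave an adjusted p of 0.506 for the 2 against 2 (0.0300 without YAP5SA on HFD). The counts behind these values were 159, 52, 95 and 176 UMIs. Cluster 9, which held 38.1% of the class in YAP5SA on HFD, had 121 UMIs of Adra1a over all libraries. None of these came from its 43 nuclei of control on chow or its 11 of control on HFD. At 3 counts these zeros allow up to 10.7 and 61.0 CPM, beside 10.8 CPM over the whole cluster, so they cannot show a difference.

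Adra1b, the alpha-1B receptor, was at 160 CPM (control, chow), 103 CPM (YAP5SA, chow), 138 CPM (control, HFD) and 173 CPM (YAP5SA, HFD). The groups overlapped, since YAP5SA on chow was the lowest of the 4 and YAP5SA on HFD the highest. Its log2 ratio was -0.63 on chow (-0.70 to -0.56) and 0.33 on HFD (0.26 to 0.40), and the fitted log2 change of -0.19 (SE 0.23) had an edgeR adjusted p of 0.640. Without the 3 clusters over 95% from YAP5SA, the chow ratio of Adra1b was 0.04. The HFD ratios of Adra1a and Adra1b used total UMIs, with a median over all genes of 0.12 (-0.06 with TMM factors).

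Chrm2, the M2 receptor that carries vagal slowing, was at 1058 CPM (control, chow), 1776 CPM (YAP5SA, chow), 1499 CPM (control, HFD) and 1806 CPM (YAP5SA, HFD). Both YAP5SA libraries lay above both controls, and control on chow lay apart below the rest. The log2 ratio was 0.75 on chow (0.72 to 0.77) and 0.27 on HFD (0.25 to 0.29), and the fitted change of 0.41 (SE 0.25, edgeR adjusted p = 0.327) did not pass the test. Ratios on HFD depend on the scaling: the median of all genes in that comparison was 0.12 with total UMIs and -0.06 with TMM factors, and that of Chrm2 was 0.08 with TMM. Nearly all cardiomyocyte-like nuclei had a UMI of Chrm2 (91.3%, 94.1%, 95.02% and 96.1%), while 12.6%, 12.3%, 14.3% and 8.67% of endothelial-like nuclei had one.

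Of the G protein and the cyclases, Gnas, the stimulatory alpha subunit, was the steadiest member at 186, 188, 180 and 199 CPM. The groups overlapped, and the log2 ratio was 0.01 on chow (-0.04 to 0.07) and 0.14 on HFD (0.08 to 0.20), the latter -0.04 with TMM factors. Its fitted change was 0.01 (SE 0.16, edgeR adjusted p = 0.982). Gnas is an imprinted locus with several alternative first exons, which counts per gene do not separate.

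Adcy5, one of the 2 main cyclases of the cardiomyocyte, was at 219 CPM (control, chow), 108 CPM (YAP5SA, chow), 166 CPM (control, HFD) and 102 CPM (YAP5SA, HFD). Both YAP5SA libraries lay below both controls. The log2 ratio was -1.02 on chow (-1.08 to -0.95) and -0.71 on HFD (-0.78 to -0.64), and the fitted change was -0.94 (SE 0.19, edgeR adjusted p = 0.0269). A UMI of Adcy5 was seen in 63.9%, 35.6%, 56.8% and 36.4% of nuclei, and in 33.7%, 18.0%, 25.5% and 16.9% after thinning to 2000 UMIs. Without cluster 24 the log2 ratio of Adcy5 was -0.82 for chow and -0.59 for HFD, and its adjusted p was 0.0645. The fitted change was -0.63 and the adjusted p 0.131 without the 3 clusters over 95% from YAP5SA, and the adjusted p was 0.152 without control on chow.

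Adcy6, the other main cyclase, was at 119 CPM (control, chow), 58.0 CPM (YAP5SA, chow), 89.1 CPM (control, HFD) and 81.4 CPM (YAP5SA, HFD). YAP5SA on chow stood apart as the low library, and the 2 HFD libraries were near each other. The log2 ratio was -1.03 on chow (-1.12 to -0.94) and -0.13 on HFD (-0.22 to -0.04), and the fitted change of -0.65 (SE 0.21) had an edgeR adjusted p of 0.0891. The adjusted p of Adcy6 was 0.0382 without YAP5SA on HFD.

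Grk5, the receptor kinase, differed most of the 8. It was at 92.1 CPM (control, chow), 1113 CPM (YAP5SA, chow), 128 CPM (control, HFD) and 467 CPM (YAP5SA, HFD). The 2 YAP5SA libraries lay far above both controls and also far from each other. YAP5SA on chow held 12.1-fold as much as its control (log2 ratio 3.59, 3.53 to 3.66), and YAP5SA on HFD 3.64-fold as much (1.86, 1.80 to 1.93). The fitted log2 change was 2.79 (SE 0.47, edgeR adjusted p = 0.0152), and 1.90 without the 3 clusters over 95% from YAP5SA (adjusted p = 0.0434) or 1.89 without YAP5SA on chow. The share of nuclei with a UMI of Grk5 was 29.7%, 82.3%, 35.0% and 49.6%, and after thinning to 2000 UMIs it was 13.8%, 71.3%, 17.4% and 37.0%.

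**Figure D2:**
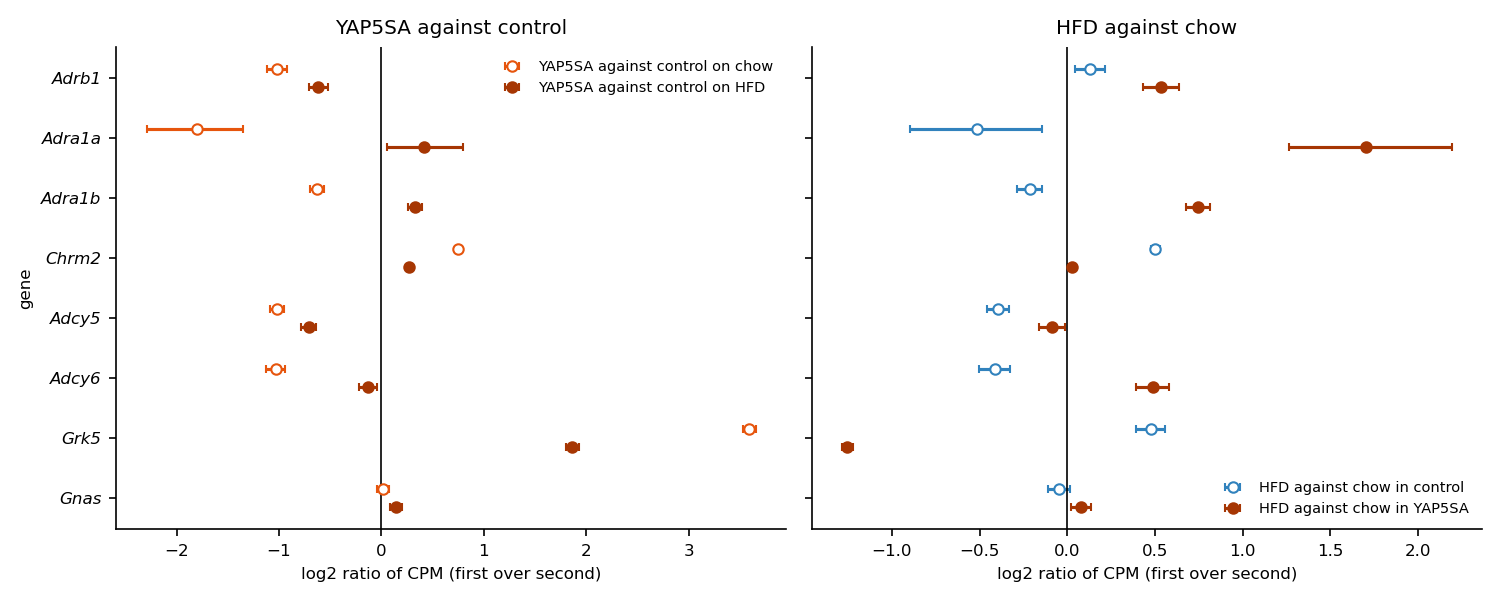
Log2 ratio of CPM (x axis) of each gene (y axis) in cardiomyocyte-like nuclei, for YAP5SA against control within each diet (left) and HFD against chow within control and within YAP5SA (right), with exact 95% counting intervals and 1 library on each side. Grk5 lies at 3.59 and 1.86 on the left, while Adra1a and Adra1b lie on opposite sides of 0 on the 2 diets.

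Of the 7 members with a mean of at least 10 CPM, 1 (Grk5) was at least 1.5-fold higher with YAP5SA on both diets, beside 11.6% of 8460 genes, and 2 (Adrb1 and Adcy5) at least 1.5-fold lower, beside 6.42%. On chow alone, where the YAP5SA library was the male one, 2 of the 7 were at least 1.5-fold higher (Chrm2 and Grk5; 16.2% of genes) and 4 lower (Adrb1, Adra1b, Adcy5 and Adcy6; 19.1%). On HFD, 1 was higher (Grk5; 22.2%) and 2 lower (Adrb1 and Adcy5; 9.72%); with TMM factors these backgrounds were 16.1% and 15.7%.

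The clusters showed where in the class these levels lay. Cluster membership was computed from the same nuclei and genes, so these levels are descriptions with no test. In cluster 24, led by Cemip and Scel and made of 682 and 443 nuclei of YAP5SA on chow and on HFD, Grk5 was at 1779 and 1294 CPM. Adrb1 was at 15.7 and 13.3 CPM there, Adcy5 at 40.1 and 37.7 CPM, and Adra1b at 31.1 and 24.9 CPM, below every other cluster in those libraries. Cluster 6, with 1645 and 879 nuclei of the YAP5SA libraries and 1 of a control, was similar, with Grk5 at 1469 and 960 CPM and Adrb1 at 22.3 and 29.7 CPM. Adra1a had 0 UMIs in cluster 24 of either library, which allows up to 0.605 and 0.870 CPM at 3 counts.

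Clusters 7 and 8 held the bulk of control nuclei and some of each YAP5SA library. In cluster 7 Adrb1 was at 95.01 CPM (control, chow), 105 CPM (YAP5SA, chow), 107 CPM (control, HFD) and 75.5 CPM (YAP5SA, HFD), so the YAP5SA library was not lower on chow. Grk5 in cluster 7 was at 74.8 CPM in control on chow and 300.1 in YAP5SA on chow, against 111 and 72.0 CPM on HFD. On HFD the YAP5SA library was thus below its control there, as in cluster 8 (71.2 against 133 CPM). Cluster 9 held 1865 nuclei of YAP5SA on HFD at 71.5 CPM of Grk5, and 11 of its control. Adra1b was high in cluster 9, at 290 CPM in YAP5SA on HFD. Cluster 5, whose leading genes belong to cell division, held nuclei of all 4 libraries (217, 268, 106 and 171). Its Grk5 was at 136, 1194, 163 and 737 CPM, its Adrb1 at 81.3, 24.7, 115 and 36.2 CPM and its Adcy5 at 178, 58.8, 137 and 40.5 CPM. Controls and YAP5SA libraries may not hold like nuclei in this cluster: with finer clustering, 1 cluster led by cell division genes held 121, 8, 73 and 6 nuclei with 13 of the 14 cardiomyocyte markers, and another held 0, 339, 0 and 201 nuclei with 6 of the 14.

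**Figure D3:**
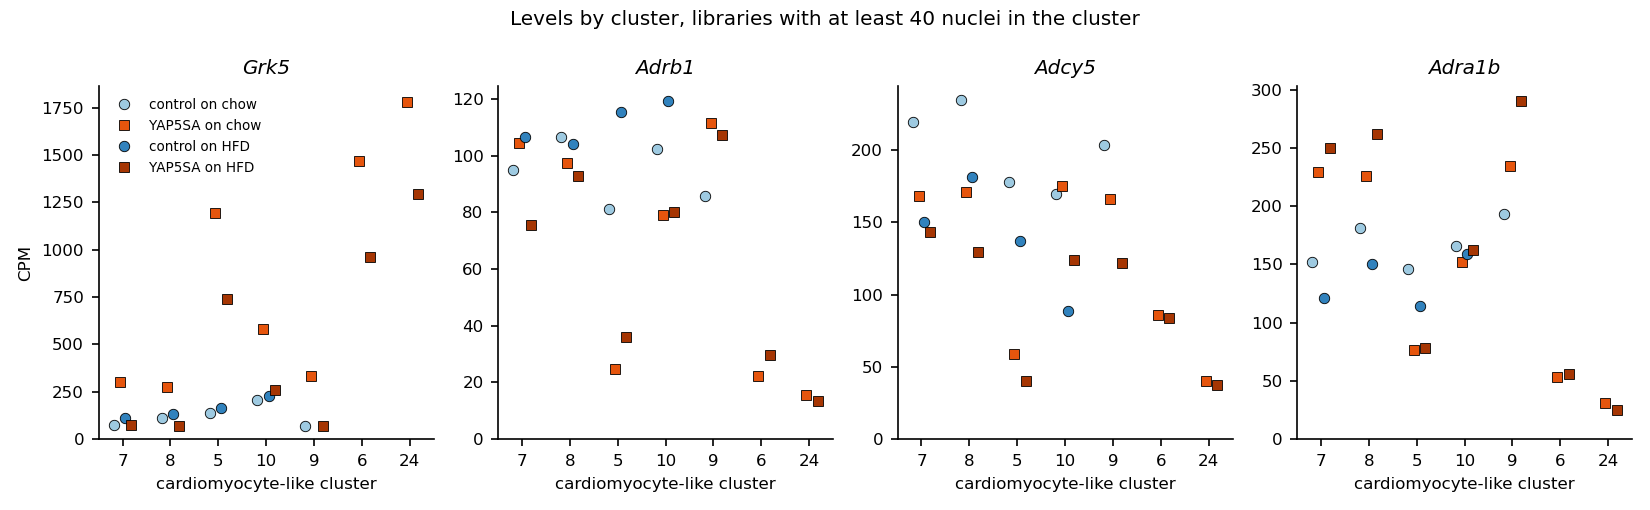
CPM (y axis, from 0) of Grk5, Adrb1, Adcy5 and Adra1b in each cardiomyocyte-like cluster (x axis), 1 point per library with at least 40 nuclei in the cluster, circles for control and squares for YAP5SA. Grk5 reaches 1779 CPM in cluster 24, where Adrb1, Adcy5 and Adra1b are at their lowest.

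Atrial cardiomyocyte-like nuclei formed a cluster of their own with 14, 83, 88 and 193 nuclei. Chrm2 was at 2935, 3780, 3090 and 2873 CPM there, above the cardiomyocyte-like level in each library. Grk5 was at 95.5, 600.04, 201 and 445 CPM in these nuclei and Adrb1 at 131, 24.1, 127 and 64.5 CPM, the control on chow resting on 8 and 11 UMIs.

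The maternal diet was compared within control and within YAP5SA, each time 1 library against 1 with no test, and with the diet labels in conflict for 2 of the libraries. Within control, none of the 7 members at 10 CPM or more was 1.5-fold apart, where 3.59% of genes were higher and 4.31% lower on HFD (4.87% and 3.05% with RLE factors). The widest ratios were 0.50 for Chrm2 (0.48 to 0.53), 0.48 for Grk5 (0.39 to 0.56) and -0.41 for Adcy6 (-0.50 to -0.33) on the log2 scale. Within YAP5SA, Grk5 was lower on HFD (-1.25, -1.28 to -1.22), beside 4.86% of genes lower, and Adra1b was higher (0.74, 0.68 to 0.81), beside 13% higher. With TMM factors the backgrounds were 9.21% lower and 8.51% higher, and the ratio of Adra1b was 0.58, just short of 1.5-fold. It was 0.10 without the clusters over 95% from YAP5SA. The 2 YAP5SA libraries also differed in sex, so diet and sex cannot be told apart between them.

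Outside cardiomyocytes, Adra1a in fibroblast-like nuclei stood out. Its level was 68.6 CPM (control, chow), 4.84 CPM (YAP5SA, chow), 57.5 CPM (control, HFD) and 5.45 CPM (YAP5SA, HFD), from 330, 26, 591 and 55 UMIs in 1091, 1238, 2157 and 2313 nuclei. Both YAP5SA libraries lay below both controls by an order of magnitude: 13.9-fold on chow and 10.5-fold on HFD. Adra1a fell by 3.72 on the log2 scale in the fit (SE 0.20, edgeR adjusted p = 0.000205) and was the only one of the 8 members called in these nuclei, beside 5.62% of 15362 genes that fell and 6.91% that rose. A UMI of Adra1a was seen in 13.6%, 1.29%, 13.6% and 1.73% of fibroblast-like nuclei, and in 0.00% to 0.54% of endothelial-like nuclei. The transgene's promoter is that of cardiomyocytes. Cardiomyocyte markers in the same sums totalled 2229, 1641, 2643 and 1854 CPM, and their part was not tested.

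The make-up of the class differed between the arms as well. Cluster 0 held 77.9% and 72.6% of fibroblast-like nuclei in the controls and 17.0% and 21.1% with YAP5SA, while cluster 3, led by Tnc, Col8a1 and Ltbp2 among other genes, held 3.85% and 3.66% in the controls and 57.1% and 50.6% with YAP5SA. Adra1a was at 86.4, 15.9, 77.5 and 24.2 CPM in cluster 0, and at 3.50 CPM or less in cluster 3. Within cluster 0 alone it fell by 2.01 on the log2 scale (SE 0.22, edgeR adjusted p = 0.0109), where 0.273% of 12815 genes fell. Cluster membership was computed from the same nuclei and genes, which this p-value leaves out of account. The arms may not hold like nuclei in cluster 0 either, and the part of this was not tested. With finer clustering, a cluster led by Kcnn3 and Hpse2 held 468, 73, 707 and 220 nuclei. Another, led by Thsd7b and Rtl4, held 140, 91, 320 and 202, and Negr1 was a leading gene of both and of cluster 0. In cluster 2, whose leading genes belong to cell division, Adra1a was at 28.3 and 30.5 CPM in the controls and 5.66 and 3.03 CPM with YAP5SA.

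**Figure D4:**
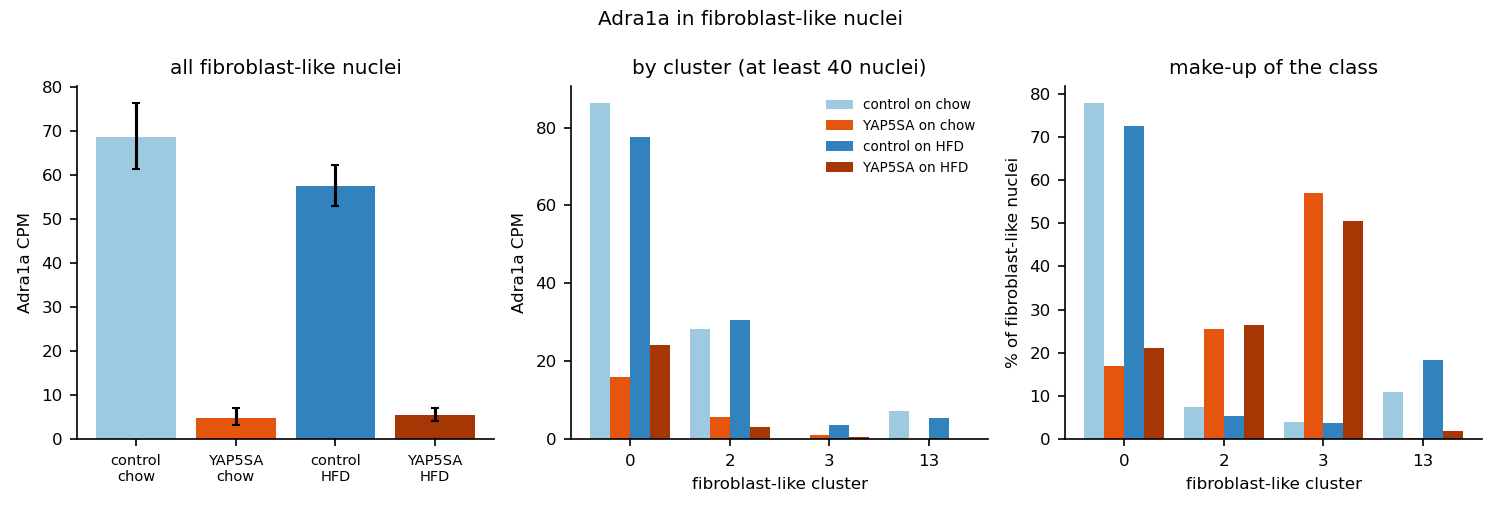
Adra1a in fibroblast-like nuclei: CPM by library with exact 95% Poisson intervals (left), CPM by cluster for libraries with at least 40 nuclei in it (middle), and share of the class in each cluster (right, percent). The controls are at 68.6 and 57.5 CPM, the YAP5SA libraries at 4.84 and 5.45 CPM, and cluster 0 is also lower with YAP5SA.

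In pericyte-like nuclei Adra1a had 29 and 31 UMIs in the control libraries and 0 in both YAP5SA libraries. Set against a limit of 3 counts per library, it was at least 4.30-fold lower on chow and at least 6.29-fold lower on HFD. The class was too small for the fit, with 173, 127, 247 and 257 nuclei.

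The other members in fibroblast-like nuclei did not pass the test. Grk5 was at 394, 550, 412 and 517 CPM there (fitted log2 change 0.28, SE 0.13, edgeR adjusted p = 0.197), a spread far narrower than in cardiomyocyte-like nuclei. Chrm2 was at 40.4, 51.4, 64.1 and 66.5 CPM and its share of nuclei, 8.56% to 14.5%, was near that of endothelial-like nuclei.

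No member was called in the endothelial-like or endocardial-like fits, in which edgeR called 0.21% of 10481 and 2.12% of 12255 genes in either direction. In endothelial-like nuclei 4 members were tested, among them Gnas with a fitted log2 change of -0.41 (SE 0.13). In endocardial-like nuclei 6 were tested, among them Adcy5 (-1.35, SE 0.50), which rests on 14, 9, 22 and 7 UMIs. Cardiomyocyte markers in the endocardial-like sums totalled 4697, 1410, 3284 and 1427 CPM. Of these 14 markers, 9 were at least 1.5-fold lower with YAP5SA on both diets, and their part was not tested. The DESeq2 Wald test called 0 members in the 2 classes. Over all genes it called 39 risen and 53 fallen of 7471 in endothelial-like nuclei, and 85 and 123 of 10938 in endocardial-like nuclei. Chrm2 in endocardial-like nuclei was at 189, 286, 532 and 400.2 CPM, with a UMI in 24.8%, 32.4%, 44.4% and 36.6% of nuclei, above the share of endothelial-like nuclei in each library.

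Across the 7 classes in which each library had 50 or more nuclei, each member had its own order of levels. Adrb1 was highest in cardiomyocyte-like nuclei (mean over libraries 80.0 CPM, range 47.8 to 106), and no other class overlapped that range, the next being macrophage-like nuclei (7.65 to 44.5 CPM). Adra1b followed the same order at the top (144, 103 to 173, against 4.52 to 54.4 CPM in macrophage-like nuclei). The upper ends in macrophage-like nuclei rest on control on chow alone, with 118 nuclei and 18 UMIs of Adrb1 and 22 of Adra1b. In the other libraries Adrb1 reached at most 13.5 CPM there and Adra1b at most 23.2 CPM. Adcy5 was highest in cardiomyocyte-like nuclei (149, 102 to 219) and next in pericyte-like nuclei (82.3, 57.7 to 107), and these ranges overlapped. Adcy6 was highest in pericyte-like nuclei (156, 116 to 188), overlapping with cardiomyocyte-like nuclei (86.8, 58.0 to 119). Chrm2 had the cardiomyocyte-like range alone at the top (1058 to 1806 CPM) and the endocardial-like range next (189 to 532 CPM). Gnas was highest in endothelial-like (627 to 888 CPM) and pericyte-like nuclei (487 to 835 CPM), which overlapped, and the cardiomyocyte-like class came next to last (180 to 199 CPM). Lymphatic endothelial-like nuclei (25, 29, 51 and 47), also too few for this order, held Gnas at 935 to 1120 CPM. For Grk5, 4 classes had like means of 454 to 469 CPM, and the cardiomyocyte-like class spanned all of them, from 92.1 to 1113 CPM. The lymphatic endothelial-like nuclei left out of the order were at 710 to 896 CPM of Grk5. Adra1a was highest in fibroblast-like nuclei by its mean (34.1 CPM), but its YAP5SA libraries there, at 4.84 and 5.45 CPM, lay within the cardiomyocyte-like range of 1.94 to 6.81 CPM.

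**Figure D5:**
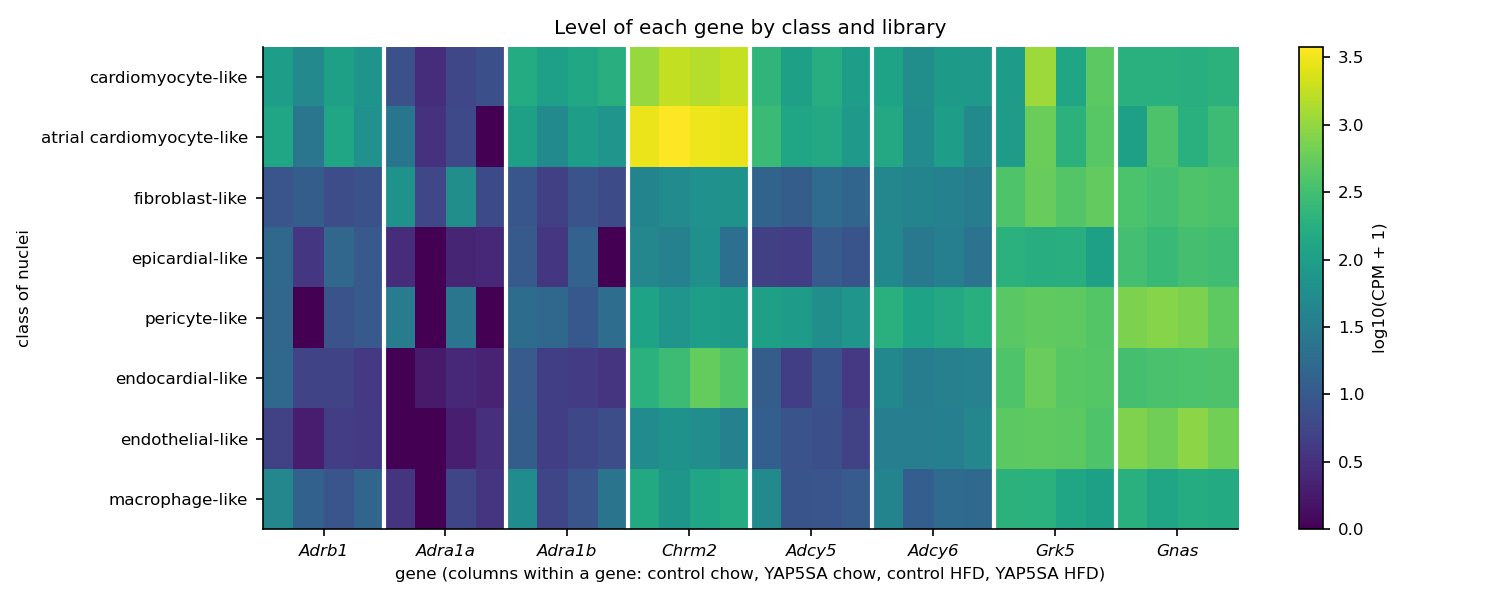
Level of each gene, as log10(CPM + 1) in colour, by class of nuclei (rows) and library (columns within a gene, ordered control chow, YAP5SA chow, control HFD, YAP5SA HFD). Adrb1, Adra1b and Chrm2 are brightest in the cardiomyocyte-like rows, and the fibroblast-like Adra1a columns differ between control (68.6 and 57.5 CPM) and YAP5SA (4.84 and 5.45 CPM).

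The rest of the pathway was read from 12 lists in cardiomyocyte-like nuclei. Of 130 other genes listed, 109 were tested, and 12 rose and 12 fell, beside 8.11% risen and 4.33% fallen over all genes tested. Without cluster 24, 4 rose and 6 fell, and the counts over all genes dropped from 1370 to 711 risen and from 731 to 332 fallen. The median fitted log2 change of the 109 was -0.08, against 0.05 over all genes tested.

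Among receptor kinases and arrestins, 3 of 7 tested rose, Grk5 and 2 others. Grk4, a kinase of the same subfamily as Grk5, was at 28.8, 72.8, 22.2 and 62.4 CPM (1.35, SE 0.21, edgeR adjusted p = 0.0120), and Arrb1, which uncouples phosphorylated receptors, at 6.46, 20.2, 4.56 and 12.5 CPM (1.52, SE 0.34, adjusted p = 0.0356). Grk3 did not pass the test and was at 64.1, 37.5, 50.5 and 32.6 CPM.

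Among the adenylyl cyclases, 1 of 10 tested rose and 2 fell. Adcy1, a calcium-stimulated cyclase, was at 1.03, 28.6, 2.15 and 18.0 CPM (3.82, SE 0.46, edgeR adjusted p = 0.00524). Adcy9 was at 130, 69.9, 113 and 81.5 CPM (-0.75, SE 0.16, adjusted p = 0.0322) and fell with Adcy5. The members of this list that moved thus went in both directions.

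Of 22 G protein subunits tested, 4 rose and 1 fell. Gng12, a gamma subunit, was at 69.4, 515, 67.7 and 315 CPM, and Gng2, another, at 5.87, 73.1, 1.60 and 26.6 CPM, with fitted changes of 2.54 (SE 0.30) and 3.70 (SE 0.71). Gna14, of the Gq class, rose by 2.84 (0.30, 3.80, 0.95 and 5.65 CPM), and Gnb3, a beta subunit, fell by 2.45 from 4.37 and 3.05 CPM.

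Adrb3, the beta-3 receptor, rose (edgeR adjusted p = 0.0109) from 0 UMIs in both controls to 37 and 33 UMIs (1.38 and 1.19 CPM) with YAP5SA. Against a limit of 3 counts per control library it was at least 3.42 higher on chow and 2.99 on HFD on the log2 scale. Counting error of the 37 and 33 UMIs is not in these limits. Of 9 RGS proteins tested, which speed the hydrolysis of GTP by G proteins, none rose and 3 fell. Rgs12 was at 53.1, 21.2, 46.3 and 18.2 CPM (-1.40, SE 0.20, edgeR adjusted p = 0.00886), and Rgs6, which limits the muscarinic response, at 776, 462, 888 and 519 CPM (-0.84, SE 0.19, adjusted p = 0.0379).

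Of the 11 contractile and channel targets of protein kinase A, none rose and 4 fell. Tnni3, cardiac troponin I, was at 383, 164, 341 and 214 CPM, and Mybpc3, cardiac myosin-binding protein C, at 530.1, 235, 454 and 224 CPM; both are also on the list of cardiomyocyte markers. Hspb6 fell by 1.48 and Fxyd1, phospholemman, by 0.90 on the log2 scale. Of the 23 genes of protein kinase A, EPAC and anchoring, 1 fell (Akap1, -0.78) and none rose. Of 12 Gq effectors 1 fell (Dgkz, a diacylglycerol kinase, -0.98).

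Of 5 genes of caveolae and scaffolds, 2 rose: Cav1, caveolin-1, at 6.89, 88.8, 9.21 and 70.1 CPM (3.24, SE 0.27, edgeR adjusted p = 0.00171), and Cavin1 at 20.9, 41.7, 19.8 and 38.4 CPM. In the list of transmitter synthesis, uptake and breakdown, 2 of 9 tested rose and 1 fell. Maoa, which breaks down noradrenaline, rose by 2.62 and Slc22a3, an uptake transporter, fell by 2.95, both at under 7 CPM. Neither of the 2 subunits of the muscarinic potassium channel passed the test, and Kcnj3 was at 79.9, 16.6, 122 and 72.5 CPM.

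In fibroblast-like nuclei 103 of the other pathway genes were tested, and 7 rose and 16 fell, beside 6.91% risen and 5.62% fallen over all 15362 genes tested.

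The genes whose levels ran most like each member were named by Pearson's r of log2(CPM + 1) over the 28 sums of 7 classes and 4 libraries, among 10660 genes. The sums share libraries and depth, and r is a description with no test. Adrb1 ran with Slc27a1 (r = 0.93), Lrrc39 (0.93) and Cavin4 (0.92). Adra1b ran with Mlip, 5430431A17Rik and Ucp3 (each 0.93), and Adcy5 with Cacna1c (0.94), Lrrtm3 (0.94) and Ctnna3 (0.93). Chrm2 ran with Prkaa2 (0.91), Cdh20 (0.90) and Pcdh7 (0.89), and Adcy6 with Abcc9 (0.88), Rbpms2 (0.85) and 5330439B14Rik (0.85). Values were 0.92 for Cdc42bpa, 0.90 for Btbd3 and 0.90 for Lmbr1 with Gnas. The weakest likeness was that of Adra1a, with Adamts19 (0.78), Igdcc4 (0.76) and Ncoa1 (0.75), and Grk5 ran with Slco3a1 (0.86), Actn1 (0.79) and Chn1 (0.79).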

How the data were processed

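Single-nucleus RNA was measured in 4 libraries, 1 per group. Per the submitters' processing notes, the deposited UMI counts were made with Cell Ranger 7.1.0 on mm10. Total counts per library were 43408234 to 61191454 over 36648 barcodes, which limits precision for low genes; intervals and floors cover counting error only.

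Nuclei with at least 500 genes and at most 5% mitochondrial counts were kept. Scrublet's own threshold marked under 0.5% of nuclei as doublets in both chow libraries, so there the highest scores were removed at 0.8% per 1000 nuclei (5.10% of control and 6.93% of YAP5SA nuclei), while its threshold was kept in the HFD libraries (4.51% and 6.69%), leaving 32143. Scanpy 1.11.5 clustered them (3000 variable genes, 30 components, 15 neighbours, resolution 1) into 25 clusters. Clusters were named from 20 marker lists, a marker counting as present in at least 10% of nuclei at 25% of its highest cluster CPM, with 1 in 3 of a list and at least 3 markers needed; these limits were set after seeing the data, and 3 clusters stayed unnamed. No cell annotation of the authors was used, so names may differ from theirs.

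Raw counts were summed per library and class and tested with edgeR 4.0.16 (quasi-likelihood, TMM, filterByExpr), 2 control against 2 YAP5SA libraries, in classes of at least 200 nuclei per library, with Benjamini-Hochberg adjustment over all genes. The fit was tested on simulated data. Ratios of single libraries used a prior count of 0.5. Named pathway genes were those called, or 1.5-fold apart on both diets at 10 CPM, at most 4 per list by size of the fitted change; genes alike were the 3 of highest correlation. Alternatives were diet as an additive term, DESeq2 1.42.0, scaling, filters, clustering, doublets, thinning, prior count and left-out libraries or clusters. The members and lists were chosen with earlier results of these data known.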

Additional observations from a re-analysis of the deposited data

Results flagged for a closer look

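Over the 4 classes whose smallest library held 200 nuclei or more, in 3 cases the 1-against-1 log2 ratio of YAP5SA to control had opposite signs on the 2 diets, with both counting intervals away from 0; the difference between diets was not tested, since each group has 1 library, and smaller classes and single clusters were not screened. Adra1a in cardiomyocyte-like nuclei was at -1.80 on chow and 0.42 on HFD. Adra1b in cardiomyocyte-like nuclei was at -0.63 on chow and 0.33 on HFD. Chrm2 in endocardial-like nuclei was at 0.60 on chow and -0.41 on HFD. All of these ratios used total UMIs, and the cases were not screened with other scaling. In cardiomyocyte-like nuclei on HFD, the median log2 ratio of all genes was 0.12 with total UMIs, -0.06 with TMM and -0.12 with RLE factors. The sex of the YAP5SA library on chow differs from that of the other libraries and cannot be told apart from these differences. The make-up of the cardiomyocyte-like class by cluster differed between the libraries too, and its part in the signs of Adra1a was not tested.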

How the results depend on the processing

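The 2 members called as fallen in cardiomyocyte-like nuclei became 0 with finer clustering, 0 without cluster 24 and 0 without the clusters over 95% from YAP5SA, and ranged from 0 to 4 with a library left out; the 1 member called as risen stayed at 1 in each of these. Finer clustering left a cluster led by Cemip and Scel (638 and 434 nuclei) unnamed, so that it and leaving out cluster 24 are not separate checks: the class then held 4062 and 4451 YAP5SA nuclei, against 4022 and 4446. Of other pathway genes, 12 rose, against 4 with finer clustering, 4 without cluster 24 and 4 without the clusters over 95% from YAP5SA. The 12 that fell were 21 with DESeq2, 24 with no filter, 6 with finer clustering, 6 without cluster 24, 4 without the clusters over 95% from YAP5SA, and 4 to 20 with a library left out. In fibroblast-like nuclei, 1 member (Chrm2, 0.55, edgeR adjusted p = 0.0411) rose with finer clustering against 0.

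Over all genes in cardiomyocyte-like nuclei, 1370 rose and 731 fell; the counts were 685 and 323 with finer clustering, 711 and 332 without cluster 24, 691 and 300 without the clusters over 95% from YAP5SA, and 2080 and 1248 with no filter. With a library left out, 802 to 1934 rose and 242 to 1275 fell. In fibroblast-like nuclei 1062 rose and 864 fell, against 648 and 433 with stricter nucleus filters, 1722 and 1425 with no filter, and 616 to 1829 and 527 to 1419 with a library left out. With stricter filters this class took in a cluster of 1022 nuclei with a median of 12480 UMIs, led by Pcdh17 and Ccdc85a. In the main setting a cluster of similar depth (median 10912 UMIs) stayed unnamed, so the 2 classes do not hold the same kinds of nuclei. In endothelial-like nuclei 10 rose and 12 fell (0 to 277 and 0 to 288 over the alternatives), and in endocardial-like nuclei 109 and 151 (44 to 360 and 27 to 376).

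Directions turned for Adra1b on chow (0.041 without the clusters over 95% from YAP5SA), Gnas on HFD (-0.045 with TMM, -0.10 with RLE factors), and, for HFD against chow in YAP5SA, Adrb1 (-0.060 without those clusters), Chrm2 (-0.14 with TMM, -0.17 with RLE) and Gnas (-0.083 with TMM, -0.12 with RLE); the cause was not tested. Leaving out cluster 24, adding the atrial cluster and cluster 0 alone were chosen after seeing the data. The stricter nucleus filter could not be fitted in endocardial-like nuclei. A left-out library leaves 1 in an arm, assumed to vary like the others. The labels give no replicate numbers, and with 1 library per group the arms could be paired by the diet of the titles alone. The fit with diet as an additive term does this. With diet as an additive term, the member calls were unchanged (edgeR adjusted p of 0.00913 for Grk5, 0.0205 for Adcy5 and 0.0229 for Adrb1 in cardiomyocyte-like nuclei, and 1.5e-05 for Adra1a in fibroblast-like nuclei), with 1407 genes risen and 768 fallen in cardiomyocyte-like nuclei and 1186 and 920 in fibroblast-like nuclei.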
